A study of Mus musculus with 35 samples.

Results

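A set of 10 negative-feedback genes of the ERK pathway was followed through knockdown and rescue of Chtop, an RNA-binding protein that acts with the TREX complex in mRNA export, in mouse N2a neuroblastoma cells. The set holds 5 dual-specificity phosphatases (Dusp1, Dusp4, Dusp5, Dusp6 and Dusp7), 3 Sprouty genes (Spry1, Spry2 and Spry4) and 2 Spred genes (Spred1 and Spred2). The members were chosen by name from the 54393 genes of the RPKM table, and Dusp4 was listed because its nuclear level was lower after knockdown. Of the 10, 8 were among the 9239 genes of the count table. The other 2, Spry1 and Spry4, were measured only as RPKM, read counts scaled for transcript length and library size.

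The study holds 35 poly(A) RNA-seq libraries from 2 lines of N2a Flp-In rtTA cells, in which doxycycline switches on an integrated, siRNA-resistant FLAG-Chtop cDNA, with exon 5 in the pEx5 line and without it in the mEx5 line. Rescue cells received a single Chtop siRNA and doxycycline, knockdown cells the same siRNA without doxycycline, and control cells a non-targeting siRNA pool without doxycycline. Medium was changed 24 h after transfection and cells were harvested at 72 h, pooled from 3 dishes for rescue and knockdown and from 2 for control. Each condition was measured in total lysate, nuclei and cytoplasm with 2 biological replicates a group, except for a single cytoplasmic pEx5 control library. All groups carry the rtTA transgene and the uninduced or induced cDNA. No control siRNA group received doxycycline, so its own effect and that of the cDNA cannot be told apart. Total lysate was 20% of the harvest that was then split into nuclei and cytoplasm, so the 3 fractions come from the same cultures.

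Growth factor receptors switch on Ras, Raf, MEK and ERK in turn, and ERK induces transcripts of its own inhibitors. Dusp1, Dusp4 and Dusp5 encode nuclear phosphatases that remove activating phosphates from MAP kinases, and Dusp6 and Dusp7 encode cytoplasmic phosphatases that prefer ERK. Sprouty and Spred proteins act further up, between the receptor and Raf, and Spred proteins recruit the Ras inhibitor neurofibromin to the membrane. Transcripts of Dusp6, Spry2 and Spry4 are widely used as readouts of ERK signalling.

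Promoter windows from RefSeq (GRCm38.p6, the mm10 assembly), running from 250 bases before to 50 after the annotated start, were matched by symbol for 8 members. Sequences are given for Dusp7, Spry2 and Spred1, which with Dusp4 passed the test after knockdown in total lysate, and for Dusp1 and Dusp5, which hold most of the motifs searched. Capitals mark exact matches on either strand to the cyclic AMP response element TGACGTCA, the E box CACGTG, the ETS core CCGGAA and the CArG box bound by serum response factor.
Dusp7 promoter, chr9:106368382-106368681, plus strand: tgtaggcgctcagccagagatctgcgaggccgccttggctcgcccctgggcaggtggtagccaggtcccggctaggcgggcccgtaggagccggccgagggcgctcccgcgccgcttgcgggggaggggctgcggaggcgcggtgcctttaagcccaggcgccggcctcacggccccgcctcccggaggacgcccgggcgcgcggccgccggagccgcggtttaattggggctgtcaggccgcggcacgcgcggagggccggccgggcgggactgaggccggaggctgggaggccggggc
Spry2 promoter, chr14:105896770-105897069, minus strand: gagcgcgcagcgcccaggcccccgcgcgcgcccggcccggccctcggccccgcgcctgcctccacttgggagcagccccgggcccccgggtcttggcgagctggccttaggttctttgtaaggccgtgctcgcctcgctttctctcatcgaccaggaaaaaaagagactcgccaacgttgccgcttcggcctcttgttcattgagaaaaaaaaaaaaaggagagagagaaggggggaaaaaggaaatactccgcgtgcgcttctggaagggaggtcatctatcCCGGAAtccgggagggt
Spred1 promoter, chr2:117120821-117121120, plus strand: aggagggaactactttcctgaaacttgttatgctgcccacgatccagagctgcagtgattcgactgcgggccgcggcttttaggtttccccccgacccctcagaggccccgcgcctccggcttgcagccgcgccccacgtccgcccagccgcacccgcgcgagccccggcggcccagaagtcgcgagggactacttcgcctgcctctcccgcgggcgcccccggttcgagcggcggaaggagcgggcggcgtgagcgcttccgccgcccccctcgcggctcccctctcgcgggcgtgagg
Dusp1 promoter, chr17:26508423-26508722, minus strand: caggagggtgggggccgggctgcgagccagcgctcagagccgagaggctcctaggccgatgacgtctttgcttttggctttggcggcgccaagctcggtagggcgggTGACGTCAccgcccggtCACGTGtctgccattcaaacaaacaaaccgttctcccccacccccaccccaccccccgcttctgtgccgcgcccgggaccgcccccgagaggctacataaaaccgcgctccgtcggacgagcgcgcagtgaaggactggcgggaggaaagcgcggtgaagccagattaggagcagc
Dusp5 promoter, chr19:53528895-53529194, plus strand: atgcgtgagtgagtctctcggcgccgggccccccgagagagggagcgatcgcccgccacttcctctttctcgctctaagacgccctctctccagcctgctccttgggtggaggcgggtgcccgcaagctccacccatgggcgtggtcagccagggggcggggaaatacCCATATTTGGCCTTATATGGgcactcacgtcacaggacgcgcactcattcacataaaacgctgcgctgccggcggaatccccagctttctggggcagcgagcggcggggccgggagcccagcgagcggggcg

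The element TGACGTCA was found in the Dusp1 window, against 1.79% of 32851 promoter windows of the same length. The Dusp1 window also held CACGTG, which is in 7.15% of all windows. The shorter core TGACG, which the full element contains, was in Dusp1, Dusp5 and Spred2, against 20.8% of all windows. Dusp5 held 2 CArG boxes, a motif found in 1.63% of all windows, and Spry2 held CCGGAA, found in 14.9%. The AP-1 motif TGACTCA, in 5.2% of all windows, was in none of the 8. The windows of Dusp7, Spred1, Dusp6 and Spry1 held no match to any of these letters.

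Chtop itself followed the labels in all 3 fractions. In total lysate it averaged 223 ± 41.3 CPM (counts scaled to a common library total) in rescue, 27.2 ± 7.38 in knockdown and 134 ± 6.48 in control (SD, n = 4 each). After knockdown it was 5.13-fold lower in total lysate, 1.79-fold lower in nuclei and 6.19-fold lower in cytoplasm (edgeR adjusted p = 3.6e-06, 5.9e-04 and 4.1e-08). Malat1, a nuclear noncoding RNA, was 18.3-fold higher in nuclei than in cytoplasm under control siRNA. Library totals were 20652832 to 36102129 counts in total lysate, 11681781 to 28705620 in nuclei and 19478702 to 40105458 in cytoplasm. Of 15 sympathetic neuroblastoma markers 12 had a median of at least 1 RPKM, while the median was 0.56 for Th and 0.62 for Dbh. Their summed level in total lysate was 1620 to 1970 RPKM in rescue and 1673 to 2033 RPKM in knockdown, against 2224 to 2454 RPKM in control, and its part in the results on the feedback genes was not tested. Of 12 mesenchymal markers, 9 had a median under 0.1 RPKM, with Fn1 at 62.1 the highest. The cytoplasmic pEx5 knockdown replicate 2 stood apart: without it edgeR called 1305 genes between rescue and knockdown in cytoplasm, against 4 with it.

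Per transcript length Dusp4 was the most abundant member in total lysate under control siRNA, at 192 ± 56.9 RPKM (SD, n = 4, as for the values that follow). Its lowest control library, at 143.8 RPKM, lay above every control library of the other members. Dusp6 averaged 38.2 ± 11.2 RPKM and overlapped the next gene, Spred1, at 25.1 ± 3.93 RPKM. Spred2 at 17.5 ± 1.35 RPKM, Dusp1 at 16.6 ± 4.44, Dusp5 at 14.4 ± 2.33 and Spry2 at 14.4 ± 3.42 followed, and each overlapped its neighbour in this order. Dusp7 at 4.99 ± 0.44 RPKM, Spry1 at 4.23 ± 0.636 and Spry4 at 3.96 ± 0.111 were lowest, and neighbours among these overlapped as well. The lowest value of any member in the 35 libraries was 2.24 RPKM, for Spry4.

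Dusp4, a nuclear phosphatase of ERK and JNK, fell after knockdown in total lysate and in cytoplasm. Both fractions come from the cultures whose nuclei put Dusp4 on the list. Its p-values and places there are thus not independent of that choice. In total lysate it was at 236 and 334 CPM in rescued pEx5 cells (replicates 1 and 2, as throughout) and at 195 and 197 CPM in rescued mEx5 cells. After knockdown it was at 178 and 329 CPM in pEx5 cells and at 100.1 and 181 CPM in mEx5 cells. Under control siRNA it was at 442 and 681 CPM in pEx5 cells and at 347 and 423 CPM in mEx5 cells. Every rescue library and every knockdown library lay below every control library, and pEx5 replicate 2 was the highest library of each condition. The fall after knockdown was 2.49-fold (-1.32 on the log2 scale, standard error (SE) 0.24, edgeR adjusted p = 0.0020), with a log2 fold change of -1.17 in the pEx5 line and -1.47 in the mEx5 line. In the ranking of 9237 genes from the lowest log2 fold change, Dusp4 was at place 38. In these bulk samples fewer cells that express a gene and less RNA per cell cannot be told apart.

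In cytoplasm Dusp4 was at 468 and 426 CPM in rescued pEx5 cells and at 310.5 and 243 CPM in rescued mEx5 cells. Knockdown cells had 240.2 and 403 CPM in the pEx5 line and 194 and 234 CPM in the mEx5 line. Control cells had 553 CPM in the single pEx5 library and 436 and 572 CPM in the mEx5 line. All knockdown libraries lay below all control libraries, and the rescue libraries overlapped the control range. The cytoplasmic fall was 2.09-fold (-1.06 on the log2 scale, SE 0.18, edgeR adjusted p = 0.0017), at place 97 of 9238 genes.

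In nuclei, whose knockdown values put Dusp4 on the list, its levels are a description without a test. Rescued nuclei had 202 and 285 CPM in the pEx5 line and 153 and 164 CPM in the mEx5 line. Knockdown nuclei had 135 and 287 CPM in the pEx5 line and 88.5 and 149 CPM in the mEx5 line, against 398 and 656 CPM and 359 and 428 CPM in control nuclei of the same lines. All rescue and knockdown libraries lay below all control libraries here too. The log2 difference between knockdown and control nuclei was -1.49 (SE 0.27), at place 9 of 9239 genes.

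**Figure D1:**
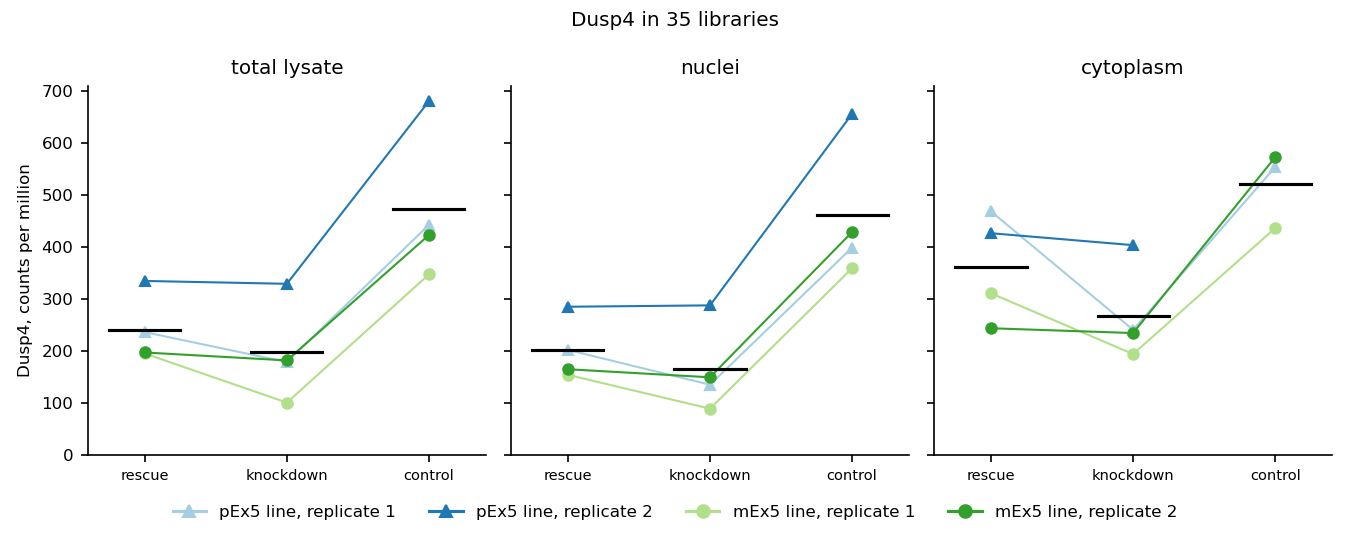
Dusp4 level in CPM (vertical axis, linear, from 0) in 35 libraries, by condition and fraction. Points are single libraries, coloured by line, with pairs of the same line and replicate number joined, and black bars are condition means. In total lysate and nuclei all rescue and knockdown libraries lie below all control libraries.

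Dusp6, a cytoplasmic ERK phosphatase, had a lower mean after knockdown in all fractions and did not pass the test in total lysate or cytoplasm. In total lysate it was at 54.5 and 74.9 CPM in rescued pEx5 cells and at 49.7 and 52.3 CPM in rescued mEx5 cells. Knockdown cells had 39.5 and 71.1 CPM in the pEx5 line and 26.8 and 44.5 CPM in the mEx5 line. Control cells had 54.0 and 95.3 CPM in the pEx5 line and 50.9 and 77.0 CPM in the mEx5 line. The libraries of the 2 conditions overlapped, while within each of the 4 pairs of 1 line and replicate number the knockdown library was lower, by a log2 ratio of -0.92 to -0.42. The log2 fold change of -0.65 (SE 0.25) had an edgeR adjusted p of 0.060. With the replicate number as a block it was -0.66 (edgeR adjusted p = 0.0025), and DESeq2 without a block called it (adjusted p = 0.010). It was also called without mEx5 control replicate 1 (adjusted p = 0.0498), mEx5 knockdown replicate 2 (0.049), pEx5 control replicate 1 (0.025) or pEx5 knockdown replicate 2 (0.032). In cytoplasm the knockdown library was lower in 3 of 3 pairs, a description only, as replicate numbers were not taken as pairs there. The Dusp6 log2 fold change in cytoplasm was -0.45 (SE 0.18, edgeR adjusted p = 0.075). DESeq2 called it there (adjusted p = 0.013), as did edgeR without mEx5 knockdown replicate 2 (0.043) or pEx5 knockdown replicate 2 (9.2e-04).

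Dusp7, the other cytoplasmic ERK phosphatase, rose. In total lysate it was at 16.2 and 20.3 CPM in rescued pEx5 cells and at 18.7 and 22.5 CPM in rescued mEx5 cells. Knockdown cells had 16.6 and 21.2 CPM in the pEx5 line and 18.4 and 22.6 CPM in the mEx5 line, against 13.02 and 15.9 CPM and 13.1 and 14.3 CPM in control cells of the same lines. Every rescue and knockdown library lay above every control library. The rise after knockdown was 1.39-fold (0.47 on the log2 scale, SE 0.11, edgeR adjusted p = 0.0063). In cytoplasm Dusp7 averaged 23.2 ± 2.49 CPM in knockdown (SD, n = 4) and 14.9 ± 0.846 CPM in control (SD, n = 3), again without overlap. That rise was 1.49-fold (0.57 on the log2 scale, SE 0.10, edgeR adjusted p = 0.0010).

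Dusp1 and Dusp5, inducible nuclear phosphatases, were not called in total lysate or cytoplasm. Dusp1, an immediate-early gene acting broadly on MAP kinases, separated by replicate number: in total lysate it was at 26.9 to 32.5 CPM in the 6 replicate 1 libraries and at 18.5 to 20.8 CPM in the 6 replicate 2 libraries. Its log2 fold change after knockdown was -0.13 (SE 0.25, edgeR adjusted p = 0.71). Dusp5, which is specific for ERK, averaged 27.7 ± 3.62 CPM in knockdown and 30.6 ± 5.22 CPM in control in total lysate (SD, n = 4 each). Its log2 fold change was -0.15 (SE 0.082, edgeR adjusted p = 0.17).

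Spry2, a Sprouty inhibitor of receptor tyrosine kinase signalling, rose after knockdown. In total lysate it was at 27.3 and 25.9 CPM in rescued pEx5 cells and at 34.0 and 38.7 CPM in rescued mEx5 cells. Knockdown cells had 34.9 and 28.1 CPM in the pEx5 line and 34.4 and 39.7 CPM in the mEx5 line, against 17.8 and 16.7 CPM and 21.6 and 27.6 CPM in control cells of the same lines. All knockdown libraries lay above all control libraries, and the rescue libraries overlapped the control range. The rise was 1.64-fold in total lysate (log2 fold change 0.72, SE 0.11, edgeR adjusted p = 5.5e-04) and 1.64-fold in cytoplasm (0.72, SE 0.10, edgeR adjusted p = 2.8e-04).

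Spry1 and Spry4, members of the same family, were tested with limma on log2(RPKM + 0.1), a scale that understates changes of low genes, and neither was called in total lysate or cytoplasm. Spry1 averaged 4.14 ± 1.25 RPKM in knockdown and 4.23 ± 0.636 RPKM in control in total lysate (SD, n = 4 each; log2 difference -0.07, SE 0.16). Spry4 averaged 3.34 ± 0.839 RPKM in knockdown and 3.96 ± 0.111 RPKM in control (log2 difference -0.27, SE 0.17, limma adjusted p = 0.28). In cytoplasm the Spry4 difference was -0.28 (SE 0.12, limma adjusted p = 0.11), with the knockdown library lower in 3 of 3 pairs. As for Dusp6, the cytoplasmic pairs are a description only.

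Spred1 fell by a small amount in total lysate. It was at 77.0 and 80.4 CPM in rescued pEx5 cells and at 76.2 and 62.3 CPM in rescued mEx5 cells. Knockdown cells had 74.1 and 75.7 CPM in the pEx5 line and 59.6 and 65.7 CPM in the mEx5 line, against 91.8 and 97.4 CPM and 73.9 and 69.2 CPM in control cells of the same lines. The conditions overlapped across lines, and the knockdown library was lower in 4 of 4 pairs. The fall was 1.21-fold (-0.28 on the log2 scale, SE 0.076, edgeR adjusted p = 0.015), and it was not called without mEx5 control replicate 1 (adjusted p = 0.055) or pEx5 control replicate 2 (0.053). In cytoplasm the Spred1 log2 fold change was -0.22 (SE 0.094, edgeR adjusted p = 0.085), and it was called without pEx5 knockdown replicate 1 (0.030). Spred2, its paralog, averaged 64.3 ± 10.3 CPM in knockdown and 61.4 ± 5.47 CPM in control in total lysate (SD, n = 4 each), a log2 fold change of 0.05 (SE 0.087). In cytoplasm Spred2 averaged 110.3 ± 7.6 CPM in knockdown (SD, n = 4) and 90.25 ± 10.7 CPM in control (SD, n = 3; log2 fold change 0.20, SE 0.090, edgeR adjusted p = 0.097), and it was called without pEx5 knockdown replicate 2 (0.049).

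**Figure D2:**
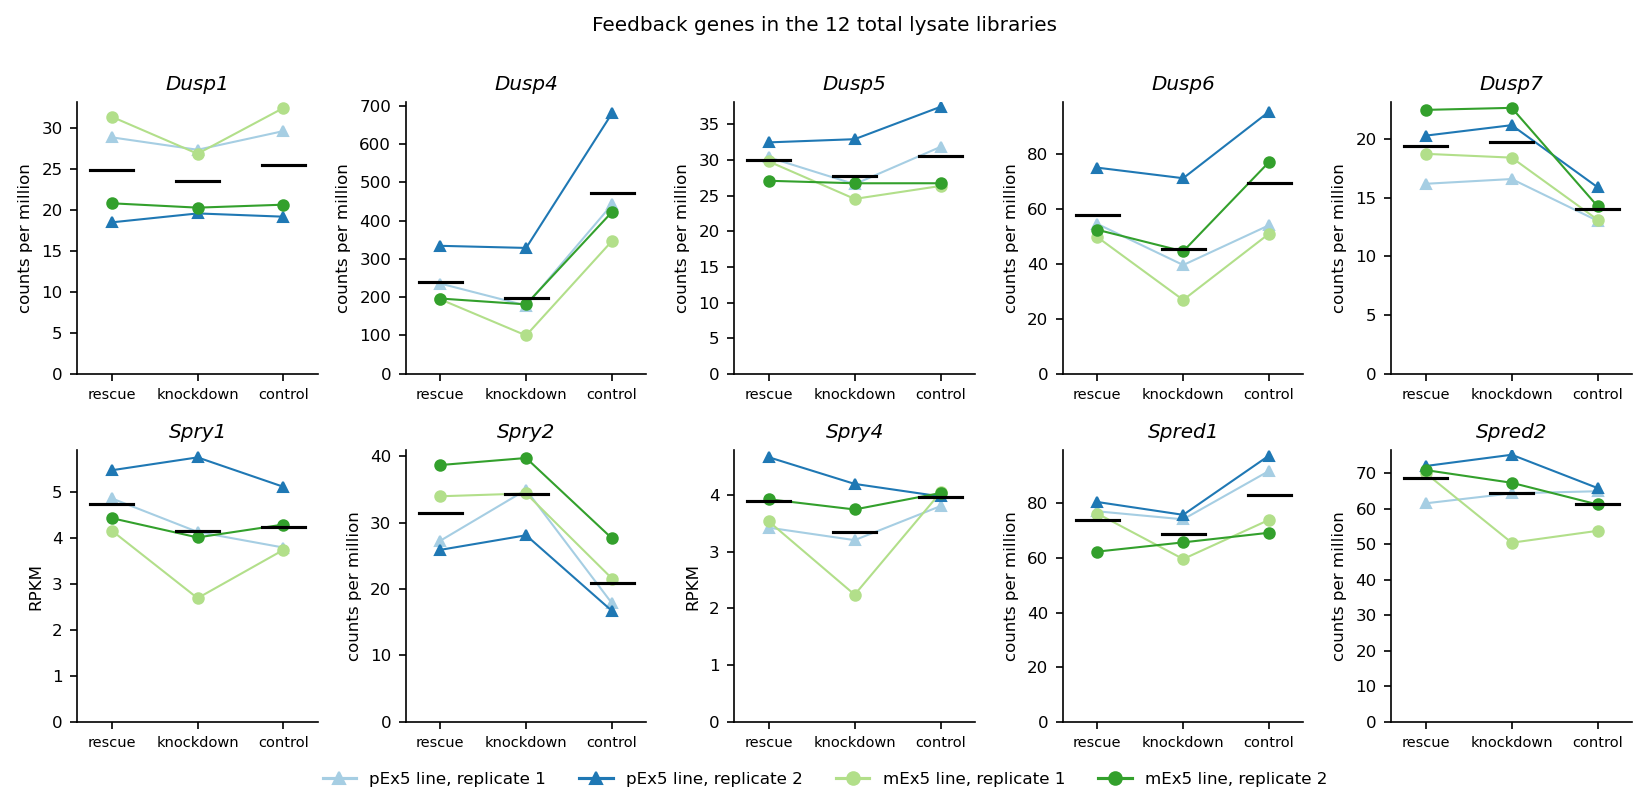
Level of each of the 10 feedback genes in the 12 total lysate libraries, in CPM or, for Spry1 and Spry4, RPKM (vertical axes, linear, from 0), by condition. Points are single libraries, coloured by line, with pairs of the same line and replicate number joined, and black bars are means of 4 libraries. Dusp4 is lower and Dusp7 and Spry2 are higher in all knockdown than in all control libraries.

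Counted together, 2 of the 10 members rose (Spry2 and Dusp7) and 2 fell (Dusp4 and Spred1) after knockdown in total lysate at an adjusted p under 0.05. Dusp4 is counted here and in cytoplasm though it was chosen on nuclei of the same cultures. Among all genes tested on counts 21.4% were called higher and 22.6% lower, and on RPKM 29.6% were called in either direction. The members' median log2 fold change was -0.14, against 0.0097 over all genes. With the replicate block 62.9% of all genes and 5 members were called. These were Dusp4 (-1.35, edgeR adjusted p = 3.9e-04), Dusp6 (-0.66, 0.0025), Spred1 (-0.28, 9.6e-04), Spry2 (0.72, 1.6e-05) and Dusp7 (0.47, 1.1e-05). Dusp1 (-0.11, edgeR adjusted p = 0.14), Dusp5 (-0.15, 0.077) and Spred2 (0.05, 0.52) were not called with the block. Nor were Spry1 (-0.07, limma adjusted p = 0.62) and Spry4 (-0.27, 0.12). In cytoplasm 2 members rose (Spry2 and Dusp7) and 1 fell (Dusp4), where 19.8% of all genes were called higher and 20.9% lower on counts and 27.8% in either direction on RPKM. The members' share was thus near the background in both fractions.

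The nuclear contrast chose Dusp4, so for all members it is given as values only. Without Dusp4, 3 of the other 9 members were past the threshold, all lower, and 6 with the block, 5 of them lower. Nothing is read from these counts, beside 15.4% of genes higher and 16% lower on counts, 22.6% on RPKM and 55.4% with the block. The log2 differences of knockdown from control nuclei were -0.83 for Dusp6, -0.58 for Dusp5, -0.55 for Spred1 and -0.30 for Spred2. They were 0.43 for Spry2, 0.08 for Dusp7 and -0.11 for Dusp1, and on RPKM -0.65 for Spry4 and -0.16 for Spry1. Spred1 was at 57.6 to 79.9 CPM in knockdown nuclei and at 85.1 to 108.5 CPM in control nuclei. Spry4 was at 2.44 to 3.84 RPKM in knockdown nuclei and at 3.91 to 5.69 RPKM in control nuclei. Neither of these 2 overlapped between the conditions, and nothing is read from this. How many of all genes separate without overlap was not counted in any fraction.

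**Figure D3:**
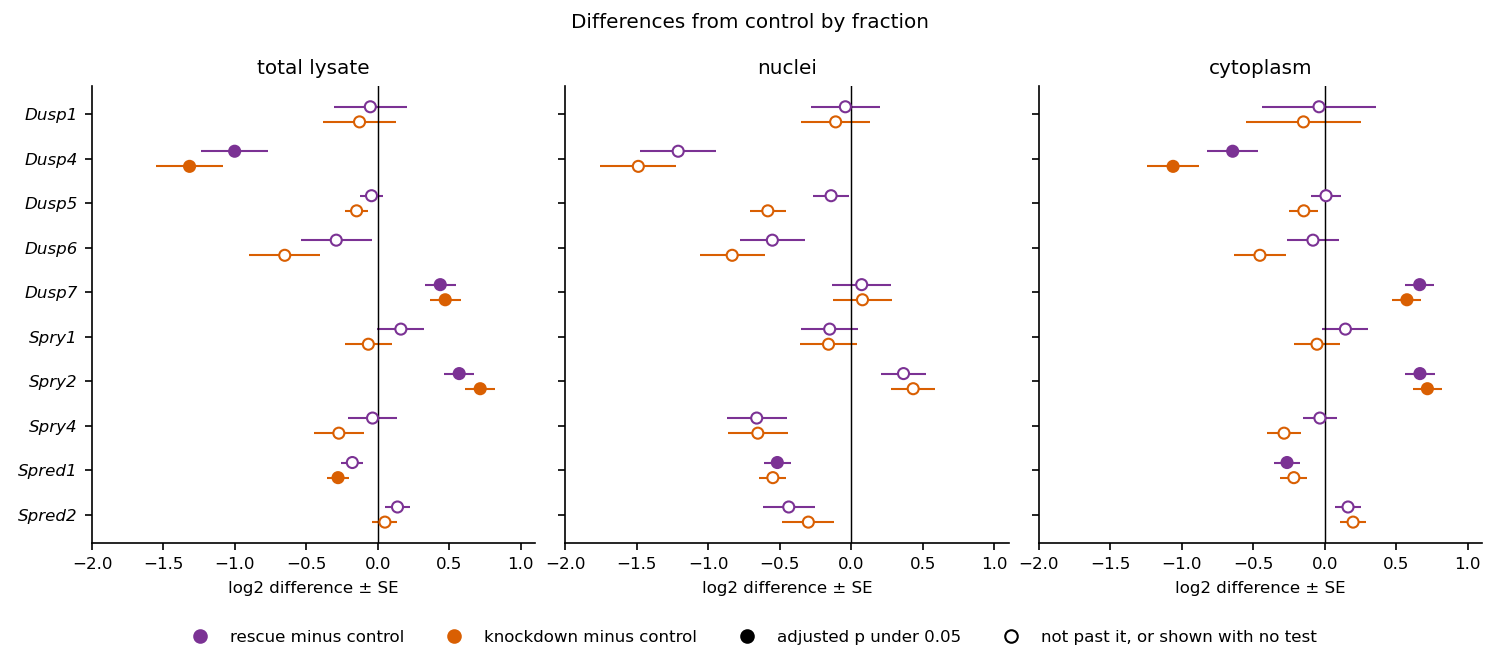
Log2 difference from control (horizontal axis, ± SE) of the 10 feedback genes in rescue and knockdown, by fraction. Filled symbols passed an adjusted p of 0.05, and open symbols did not or are shown without a test, as are nuclear Dusp4 and all nuclear knockdown values. Both differences share their control libraries, and Dusp4 lies left of 0 and Spry2 right of 0 in each panel.

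Rescue was set against knockdown to ask whether levels moved when the Chtop cDNA was induced. No member was called in any fraction by edgeR, by limma for Spry1 and Spry4, or by DESeq2 without a block. Among all genes 0.0217% were called on counts in total lysate, 0.0108% in nuclei and 0.0433% in cytoplasm, and on RPKM 0.0696%, 0.0797% and 0.0542%. At an unadjusted p under 0.05 there were 0 members in total lysate, 1 in nuclei and 2 in cytoplasm. Over all genes on counts that threshold was passed by 660 of 9237 in total lysate, 771 of 9239 in nuclei and 886 of 9238 in cytoplasm. Dusp4 had a log2 fold change of 0.32 (SE 0.23, edgeR adjusted p = 0.75) in total lysate and 0.42 (SE 0.16, adjusted p = 0.51) in cytoplasm. Dusp6 had 0.36 (SE 0.25, edgeR adjusted p = 0.74) in total lysate and 0.37 (SE 0.16, adjusted p = 0.51) in cytoplasm. Without the cytoplasmic pEx5 knockdown replicate 2 both were called in cytoplasm, Dusp4 at 0.62 (edgeR adjusted p = 0.0049) and Dusp6 at 0.58 (0.0080). Cytoplasmic Spry4 was at 4.75 to 5.27 RPKM in rescue and at 3.61 to 4.68 RPKM in knockdown, without overlap, and was not called (log2 difference 0.25, SE 0.11, limma adjusted p = 0.61).

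The 2 replicate numbers gave unlike values for several members, Dusp4 and Dusp6 among them. In total lysate the mean log2 ratio of rescue to knockdown was 0.68 for Dusp4 and 0.68 for Dusp6 over the 2 pairs of replicate 1, and 0.070 and 0.15 over those of replicate 2. In cytoplasm it was 0.82 for Dusp4 and 0.70 for Dusp6 in replicate 1, and 0.068 and 0.13 in replicate 2. Spry1 had 0.43 in replicate 1 and 0.036 in replicate 2 in total lysate, and 0.45 and -0.040 in cytoplasm. In total lysate Dusp5 had 0.24 and -0.00053, Spred1 0.21 and 0.0054 and Spred2 0.20 and 0.0062. The difference between replicate numbers was not tested, and in cytoplasm the numbers were not taken as pairs. For Dusp7 the 4 values in these fractions lay between -0.037 and 0.12.

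Nuclear Dusp5 was the member with an unadjusted p under 0.05. It was at 24.3 and 25.6 CPM in rescued pEx5 nuclei and at 21.6 and 20.7 CPM in rescued mEx5 nuclei. Knockdown nuclei had 13.5 and 20.3 CPM in the pEx5 line and 16.7 and 15.4 CPM in the mEx5 line. All rescue libraries lay above all knockdown libraries. Its log2 fold change of 0.44 (SE 0.13) was not called without a block (edgeR adjusted p = 0.46) and was called with the replicate number as a block (0.44, edgeR adjusted p = 0.013). Nuclear Dusp6 was called with the block too (log2 fold change 0.30, edgeR adjusted p = 0.035). The blocked fit called 6.84% of genes in nuclei, and in total lysate 1.84% of genes and no member.

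Rescued cells differed from control cells in several members, on the same control libraries as the knockdown comparison. For Dusp4 those control cultures are also the ones whose nuclei put it on the list. In total lysate Dusp4 was 2.00-fold lower (-1.002 on the log2 scale, SE 0.23, edgeR adjusted p = 0.0094), where knockdown gave -1.32. Spry2 was higher by a log2 fold change of 0.57 (SE 0.11, edgeR adjusted p = 0.0026) and Dusp7 by 0.44 (SE 0.11, edgeR adjusted p = 0.011), where knockdown gave 0.72 and 0.47. Spred1 had -0.18 (SE 0.076, edgeR adjusted p = 0.091) and was called with the replicate block (adjusted p = 0.020) and without mEx5 rescue replicate 1 (0.013). These 3 calls compare with 18.3% of genes higher and 19% lower on counts, 24.3% on RPKM and 57.9% with the block.

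In cytoplasm Dusp7 was higher in rescue than in control by 1.58-fold (0.66 on the log2 scale, SE 0.10, edgeR adjusted p = 5.5e-04) and Spry2 by 1.59-fold (0.67, SE 0.10, edgeR adjusted p = 5.8e-04). Dusp4 was 1.56-fold lower (-0.64 on the log2 scale, SE 0.18, edgeR adjusted p = 0.022), and was not called without mEx5 control replicate 2 (0.058), mEx5 rescue replicate 2 (0.062) or pEx5 rescue replicate 2 (0.059). Spred1 was lower (log2 fold change -0.26, SE 0.094, edgeR adjusted p = 0.046). The Spred1 call was lost without any of 5 libraries, namely mEx5 control replicate 1 or 2, mEx5 rescue replicate 2 and pEx5 rescue replicate 1 or 2 (adjusted p = 0.052 to 0.15). It was also lost with DESeq2 size factors (0.051), library totals (0.10) or RPKM (0.055). Among all genes 17.2% were higher and 18.4% lower on counts and 22.7% were called on RPKM.

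In nuclei Spred1 was at 81.6 and 80.1 CPM in rescued pEx5 nuclei and at 68.7 and 56.3 CPM in rescued mEx5 nuclei, against 109 and 106 CPM and 108 and 85.1 CPM in control nuclei of the same lines. It was lower without overlap, by a log2 fold change of -0.52 (SE 0.095, edgeR adjusted p = 0.0043). Dusp4, given without a test, differed by -1.21. Spry4 was at 2.33 to 3.59 RPKM in rescued nuclei and at 3.91 to 5.69 RPKM in control nuclei (log2 difference -0.66, SE 0.21, limma adjusted p = 0.064), and was called with the block (adjusted p = 0.0036). Dusp6 at -0.55, Spred2 at -0.44 and Spry2 at 0.36 were not called (edgeR adjusted p = 0.11, 0.11 and 0.12) but were with the block, at -0.54, -0.45 and 0.37 (1.9e-05, 7.0e-05 and 0.0026). Without pEx5 rescue replicate 2, Spry4 (limma adjusted p = 0.047) and Spred2 (edgeR adjusted p = 0.032) were called without a block. Without Dusp4, 1 of 9 members passed the threshold and 5 with the block, beside 11.5% of genes higher and 12.2% lower on counts, 17.1% on RPKM and 49.8% with the block.

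The rescue effect in pEx5 cells was set against that in mEx5 cells, whose cDNA lacks exon 5. Each cDNA was in 1 line only, so an effect of exon 5 and of the line cannot be told apart. No member was called in any fraction by edgeR, limma or DESeq2, and 0 passed an unadjusted p under 0.05 (Dusp4 in nuclei was not tested). Over all genes on counts that unadjusted threshold was passed by 98 of 9237 in total lysate, 26 of 9239 in nuclei and 288 of 9238 in cytoplasm. Among all genes edgeR called 0% in each fraction, and limma on RPKM called 0.0547% in total lysate, 0.062% in nuclei and 0.0271% in cytoplasm. In total lysate the pEx5 minus mEx5 difference of log2 rescue effects was between -0.30 (Spry1, SE 0.33) and -0.02 (Dusp7, SE 0.21) in all 10 members. The knockdown effect, again without nuclear Dusp4, also had 0 members called by these tools, with 0% of all genes on counts and 0.0298%, 0.0576% and 0.0325% on RPKM in total lysate, nuclei and cytoplasm. Its 1 unadjusted p under 0.05 among the fractions tested was for Spry2 in cytoplasm, where knockdown gave a log2 fold change of 0.97 in the pEx5 line and 0.46 in the mEx5 line (difference 0.51, SE 0.20). The pEx5 value there rests on 1 control library, at 19.7 CPM, which the fit takes to vary like the other groups. For this knockdown contrast 253 of 9238 genes passed the unadjusted threshold on counts in cytoplasm. The standard errors, from 0.15 for Spred1 to 0.51 for Dusp1 in total lysate, set how small a line difference could be seen.

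The ratio of nuclei to cytoplasm compares each fraction's share of its own library, not absolute amounts. Under control siRNA, 2 of the 9 members other than Dusp4 were lower in nuclei. Spred2 was at 58.8 to 76.6 CPM in control nuclei and at 80.6 to 101.8 CPM in control cytoplasm (log2 ratio -0.44, SE 0.17, edgeR adjusted p = 0.026). Dusp5 was at 20.3 to 31.6 CPM in control nuclei and at 29.7 to 38.4 CPM in control cytoplasm (log2 ratio -0.41, SE 0.13, edgeR adjusted p = 0.0077). Spred2 was not called without nuclear mEx5 control replicate 1 (0.069), nuclear pEx5 control replicate 1 (0.11) or cytoplasmic mEx5 control replicate 2 (0.062). Among all genes 33.8% were higher and 36.1% lower in nuclei on counts, and 53.2% were called on RPKM. Dusp1 had a log2 ratio of 0.37 (SE 0.33) and was not called in this fit, and for Dusp4 the ratio was -0.20 (SE 0.26), without a test. With the replicate number as a block 6 of the 9 were called, beside 74.2% of all genes. In that fit Dusp1 was higher in nuclei (0.48, edgeR adjusted p = 4.9e-04), and Spred2 (-0.69, adjusted p = 3.2e-07), Dusp5 (-0.53, adjusted p = 8.6e-05), Dusp6 (-0.37, adjusted p = 0.011), Spry2 (-0.31, adjusted p = 0.021) and Spry1 (-0.54, limma adjusted p = 0.0034) were lower. Neither fit links the nuclear and cytoplasmic library of a culture, and nuclear pEx5 control replicate 2 has no cytoplasmic partner. RPKM was not rescaled further between fractions, so the Spry1 and Spry4 ratios are not on the scale of the other members. On RPKM without a block, Spry2 was at -0.54 and Spred1 at -0.43, both called, while neither was called on counts without a block.

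After knockdown the log2 ratio of nuclei to cytoplasm was lower than under control siRNA in 8 of the 9 members other than Dusp4, and 0 of the 9 were called by edgeR, limma or DESeq2 without a block. It was -0.93 in knockdown and -0.44 in control for Spred2, a change of -0.49 (SE 0.23, edgeR adjusted p = 0.24). For Dusp7 it was -0.33 in knockdown and 0.16 in control (change -0.48, SE 0.25, edgeR adjusted p = 0.29), and for Dusp5 -0.84 and -0.41 (change -0.43, SE 0.17, adjusted p = 0.16). Spred1 changed by -0.32 (SE 0.14, edgeR adjusted p = 0.19) and Dusp4 by -0.42, without a test. The median change of the 9 was -0.37, against 0.011 over all genes. An unadjusted p under 0.05 was reached by 3 of them, beside 1918 of 9239 genes on counts and 3700 of 23475 on RPKM. Among all genes 5.14% were called on counts, 1.31% as lower, and 1.67% on RPKM. With the replicate number as a block 4 of the 9 were called, beside 22.6% of all genes: Spred2 (-0.52, edgeR adjusted p = 0.0023), Dusp5 (-0.47, adjusted p = 0.014), Dusp7 (-0.47, adjusted p = 0.016) and Spred1 (-0.35, adjusted p = 0.018). Dusp5 was called without nuclear pEx5 knockdown replicate 2 (change -0.61, edgeR adjusted p = 0.033). The change of the ratio from knockdown to rescue was called in 0 members by edgeR, limma or DESeq2. That compares with 0.0216% of genes on counts and 0.0511% on RPKM. Of the members tested 0 had an unadjusted p under 0.05, beside 249 of 9239 genes on counts and 1042 of 23475 on RPKM.

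**Figure D4:**
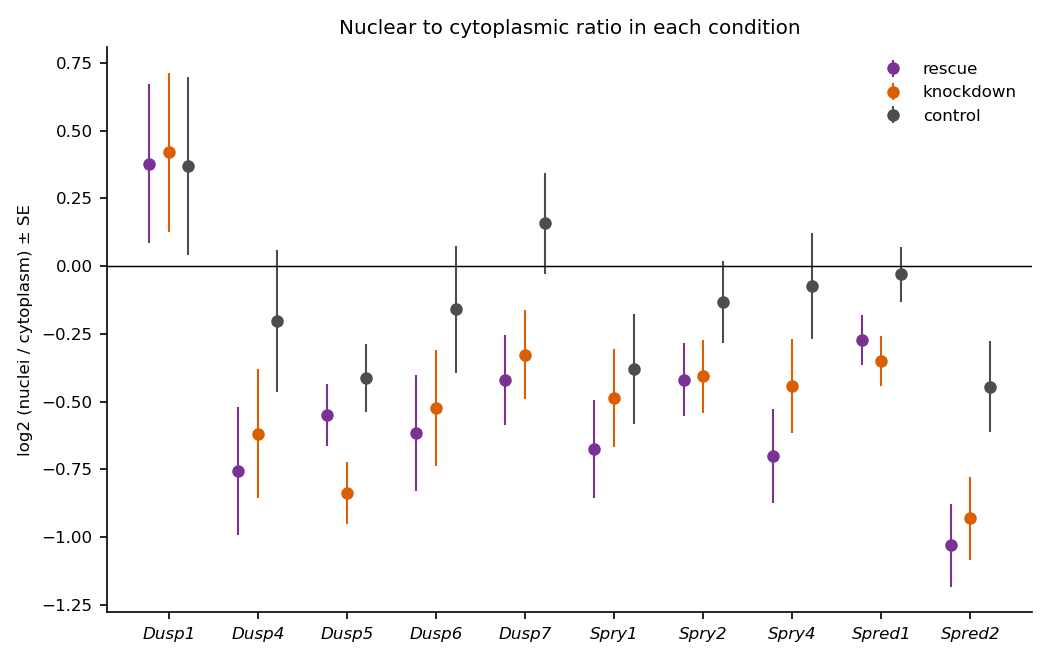
Log2 ratio of nuclei to cytoplasm (vertical axis, ± SE) for the 10 feedback genes in rescue, knockdown and control. A value below 0 is a lower share of the nuclear than of the cytoplasmic library. Spry1 and Spry4 are on RPKM, not rescaled further between fractions, so their ratios are not on the scale of the others. The knockdown value is below the control value in all members except Dusp1; that of Dusp4 holds the nuclear level it was chosen on.

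The authors' deposited table gives its own change of this log2 ratio after knockdown for the 8 members it holds, from -0.62 for Spred2 and -0.55 for Dusp5 to 0.04 for Dusp1. Without Dusp4 (-0.45), 6 of 7 were below 0 in the authors' deposited table, with a median of -0.32, against a median of 0.011 over 9239 genes, 4461 of which were below 0. These values come from the same libraries. The authors' deposited table also marks genes as bound by Chtop in iCLIP, a crosslinking assay of RNA binding sites. The mark was on Dusp4, Dusp6, Spred1 and Spred2, which is 50% of the 8, against 48.5% of all 9239 genes.

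By the GENCODE annotation of mm10 the members differ in gene structure. Dusp4 lies on chromosome 8 (34807297 to 34819894, plus strand), Dusp6 on chromosome 10 (99263231 to 99267489, plus strand) and Dusp7 on chromosome 9 (106368632 to 106375724, plus strand). Spry2 lies on chromosome 14 (105891947 to 105896819, minus strand) and has 2 exons with 1 of them coding, as do Spry1 and Spry4. The phosphatase genes have 3 to 4 exons, Spred1 7 and Spred2 6, against a median of 9 over 8923 protein-coding genes of the count table. Spred1 lies on chromosome 2 (117121374 to 117182279, plus strand) and Spred2 on chromosome 11 (19924375 to 20024026, plus strand).

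Over the 12 total lysate libraries, which share 3 conditions, the genes with levels most like Dusp4 were Creb3l2 (Pearson r = 0.99), Grn (0.98) and Aldh1l2 (0.98). Those most like Dusp6 were Prkd2 (0.99), Ahnak (0.98) and Plin3 (0.97). For Dusp7 they were Rbm15b (0.98), Tenm3 (0.97) and Atxn7l3 (0.97), for Spry2 Wdr77 (0.96), Baz1b (0.96) and Zdhhc16 (0.95), and for Spred1 Myb (0.95), Galnt1 (0.94) and Rbpj (0.94). Among the members, r was 0.89 between Dusp4 and Dusp6, 0.80 between Dusp4 and Spred1 and -0.84 between Dusp4 and Spry2. All these are descriptions across libraries that differ in condition.

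Other genes around the pathway were counted from 6 lists, beside the 21.4% of genes higher and 22.6% lower after knockdown in total lysate. Of 18 tested receptors, adaptors and Ras regulators (30 listed) 6 rose and 3 fell, with a median log2 fold change of -0.072 against 0.0097 over all genes. Among these the receptor tyrosine kinases Ret (-0.71, SE 0.21, edgeR adjusted p = 0.021) and Alk (-0.62, SE 0.16, adjusted p = 0.012) and the adaptor Gab2 (-0.52) fell, and the neurotrophin receptor gene Ntrk3 rose (0.64, SE 0.065, adjusted p = 6.5e-05). Of 15 tested Ras, Raf, MEK and ERK genes (16 listed) 4 rose and 4 fell (median -0.070). Here Rras (-1.10, SE 0.16, edgeR adjusted p = 5.6e-04) and the kinase gene Braf (-0.63, SE 0.072, adjusted p = 1.4e-04) fell, while Hras (0.37) rose.

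Of 14 tested ERK-responsive transcripts (22 listed) 2 rose and 5 fell after knockdown in total lysate (median -0.14). The early-response gene Ier3 (-1.20, SE 0.22, edgeR adjusted p = 0.0021), the ETS factor gene Etv4 (-0.77, SE 0.097, adjusted p = 2.2e-04), Phlda1 (-0.63) and the AP-1 gene Junb (-0.43) were among those that fell. Of 9 tested other dual-specificity phosphatases (20 listed) 3 rose and 3 fell (median -0.020), with Dusp2, an inducible nuclear phosphatase, at 0.85 (SE 0.11, edgeR adjusted p = 2.6e-04). In the same list Styx, an inactive member of the family, was at 0.69 (SE 0.097, edgeR adjusted p = 4.4e-04), Dusp11, which acts on RNA, at -0.48 (SE 0.070, adjusted p = 5.5e-04) and Dusp10, which acts on p38 and JNK, at -0.43 (SE 0.13, adjusted p = 0.021). Of 10 tested other inhibitors (16 listed) 1 rose and 2 fell (median 0.050): the EGF receptor inhibitor Errfi1 (0.42, SE 0.079, edgeR adjusted p = 0.0022) rose and Spred3 (-0.47, SE 0.11, adjusted p = 0.0063) and Pea15a (-0.32), which holds ERK in the cytoplasm, fell. Of 10 tested p38 and JNK kinase genes (14 listed) 5 fell (median -0.21), among them Mapk10 (-0.80, SE 0.073, edgeR adjusted p = 3.7e-05), Mapk14 (-0.42, SE 0.063, adjusted p = 6.0e-04), Map2k4 (-0.33) and Map2k3 (-0.29).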

How the data were processed

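Gene-level counts of poly(A) RNA for 9239 genes and RPKM values for 54393 genes were deposited by the authors. Salmon 0.14.1, DESeq2 and mm10 are named in the submitters' processing notes, and their role in making each table is not given in those notes. The authors' deposited log2 fold changes between nuclei and cytoplasm and their iCLIP marks were copied as given. A single RPKM column (1 in all) that matched no sample was not used. The counts were fitted per fraction, and over nuclei and cytoplasm together for their ratio, with edgeR 4.0.16 (quasi-likelihood test, TMM scaling, filterByExpr) in R 4.3.3. Spry1 and Spry4, outside the count table, were fitted with limma 3.58.1 on log2(RPKM + 0.1) over genes with at least 0.1 RPKM in 2 libraries. P-values were adjusted over all genes by the Benjamini-Hochberg method, and a call is an adjusted p under 0.05. DESeq2 1.42.0 was an alternative. The total lysate fits were also run on simulated independent counts with a knockdown effect only. These held no line effect, no shared deviation of same-numbered libraries and no ratio of fractions, so they do not check the fits for those.

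Groups follow the sample labels, and p-values measure the spread between labelled biological replicates. The members and lists were chosen with earlier results of these data known. In every list, up to 4 called genes are named, those with the largest change at 5 CPM or more. Same-numbered libraries deviated together in total lysate (15 pairs, correlation 0.35 to 0.79) and in nuclei (15 pairs, 0.52 to 0.72), so blocked values are given there. In cytoplasm only 7 of 10 pairs were over 0.1 (0.060 to 0.65), so the numbers were not taken as pairs. Nuclei and cytoplasm share cultures, but neither fit of their ratio links the nuclear and cytoplasmic library of a culture. The blocked fit has a separate replicate term for each fraction. Its cytoplasmic term uses the pairs not taken for cytoplasm alone, so its values are given only as an alternative. Gene-level values cannot show isoforms, and reads that the Dusp or Spry paralogs share could be split by the authors' quantification.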

Additional observations from a re-analysis of the deposited data

How the results depend on the processing

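Alternatives were DESeq2, DESeq2 size factors, library totals, no filter on low counts, RPKM for all members, another pseudocount, no RPKM filter, a replicate block and leaving out each library. None of 2460 alternative values of 110 gene results turned round a call, while 109 values not called in either setting changed sign. With the replicate block edgeR called 7 members between knockdown and control nuclei (4 without, Dusp4 in both counts though it was chosen there), 2 between rescue and knockdown nuclei (0 without) and 6 between rescue and control nuclei (2 without, Dusp4 again in both), and DESeq2 with the block gave 7, 2 and 6. Calls over all genes rose too, to 5123, 632 and 4604 with the edgeR block, from 2903, 1 and 2191 without it. DESeq2 with the block called 4918, 682 and 4395. In cytoplasm, where the numbers were not taken as pairs, the block gave 6 members after knockdown (3 without) with either tool. Over all genes it gave 4569 with edgeR and 4307 with DESeq2, against 3763 without. DESeq2 with the block called 1 member between rescue and knockdown in cytoplasm, beside 125 of all genes. For the ratio of nuclei to cytoplasm under control siRNA the block gave 6 members with either tool and RPKM for all members gave 4, against 2. Of all genes 74.2% were called with the edgeR block and 53.2% on RPKM. For the change of this ratio after knockdown the block gave 4 members with either tool, against 0. Of all genes 22.6% were called there with the edgeR block, against 5.14% without. Leaving out 1 library at a time gave 3 to 5 members after knockdown in total lysate, nuclei and cytoplasm alike. Between rescue and control it gave 3 to 4 in total lysate, 2 to 4 in nuclei and 2 to 4 in cytoplasm. Between rescue and knockdown it gave 0 to 2 in cytoplasm and 0 to 0 elsewhere. The ratio under control siRNA had 1 to 2 and its change after knockdown 0 to 1, and the line differences and the rescue change of the ratio 0 to 0. The comparisons that need the cytoplasmic pEx5 control have no value without its single library. The leave-out counts for knockdown and rescue nuclei against control include Dusp4, which was chosen on knockdown nuclei, and nothing is read from them. No share of all genes is set beside the leave-out counts. They therefore do not show whether members were called more often than other genes. Precision is limited by 2 libraries a group, and leaving out 1 of them leaves 1 in that group.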
